A study of Oryza sativa with 4 samples.

Results

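OsNF-YB1 is a rice transcription factor of the NUCLEAR FACTOR Y (NF-Y) family. NF-Y works as a complex in which NF-YB and NF-YC pair through their histone-fold domains and NF-YA contacts the CCAAT box. For OsNF-YB1, the paper cites earlier work in which association with NF-YA is impaired. It reports the GCC box as enriched in its OsNF-YB1 peaks and the CCAAT box as not enriched. OsNF-YB1 itself is expressed in the aleurone layer, the outer cell layer of the endosperm through which nutrients enter the filling grain. In rice the distal parts of the chromosome arms are known as gene-rich euchromatin, while the regions around the centromeres and some short arms are richer in repeats and heterochromatin. The narrow ChIP-seq peaks of OsNF-YB1-GFP that lie towards the chromosome ends are described here.

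A narrow peak was counted as distal when its summit, the base with the highest stack of ChIP tags, lay in the first or last 10% of a chromosome. Each chromosome was divided into 10 deciles of equal length, and the first and last of them are called distal here. The length of a chromosome was taken as the highest position in any of the deposited peak lists. The first deciles of chromosomes 4, 9 and 10 were not counted as distal, because they lie on short arms that are heterochromatic or close to the centromere, and their peaks were kept among the other narrow peaks. This left 21 distal deciles, or chromosome ends, that span 66.4 Mb of the 373 Mb covered by the lists, which is 17.8%. They held 425 of 3203 narrow peaks, namely 321 of 2368 in line 16 and 104 of 835 in line 22. These were 13.6% of the narrow peaks of line 16 and 12.5% of those of line 22.

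The peaks come from caryopsis coats, the tissue left when starchy endosperm and embryo are taken out of the caryopsis, at 8 to 12 days after fertilization (DAF). ChIP and input libraries were made from each of 2 independent transgenic lines, lines 16 and 22, which carry OsNF-YB1-GFP under a ubiquitin promoter (*pUbi:OsNF-YB1-GFP*) in the *japonica* cultivar Zhonghua11. Chromatin was precipitated with an anti-GFP antibody, DNA of 4 ChIP experiments was pooled, and 1 ChIP and 1 input library were sequenced per line. The fusion protein is therefore made beyond the aleurone layer as well, and plants lacking the fusion were not analysed here. After duplicates were removed, between 20143149 and 21994210 tags per library remained. The peak lists are named here by the line given in their headings, since the labels number the libraries and name no line. With 1 ChIP library per line there is no replicate within a line, so each comparison was made in line 16 and again in line 22.

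Narrow peaks were sparser in the distal deciles than elsewhere, in both lines. In line 16 there were 4.83 narrow peaks per Mb in the distal deciles and 6.68 per Mb elsewhere. In line 22 the densities were 1.57 and 2.39 per Mb. Averaged over the 12 chromosomes, line 16 had 15.0 narrow peaks per distal decile and 20.8 per other decile, a difference of -5.79 ± 4.12 (SD over 12 chromosomes). The density was lower in the distal deciles of 11 of the 12 chromosomes, the exception being chromosome 7 with 18.0 against 17.8 peaks per decile. Line 22 had 5.0 narrow peaks per distal decile and 7.38 per other decile, a difference of -2.38 ± 1.83 (SD over 12 chromosomes). Here too the density was lower in 11 of the 12 chromosomes, and the exception was chromosome 12 with 5.50 against 4.25 peaks per decile. Both differences passed an exact two-sided paired permutation test over the 12 chromosomes after Benjamini-Hochberg adjustment over 16 tests (adjusted *P* = 0.00781 in line 16 and 0.00977 in line 22). The distal density was 0.722 times that of the other deciles in line 16 and 0.677 times in line 22, and this deficit was not found to differ between the lines (exact paired permutation test, adjusted *P* = 0.867). With the first deciles of chromosomes 4, 9 and 10 counted as distal, the ratio in line 16 was 0.769 and no longer passed (permutation test, adjusted *P* = 0.0527). These *P*-values measure the spread between chromosomes of a single library, not the spread between plants.

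**Figure D1:**
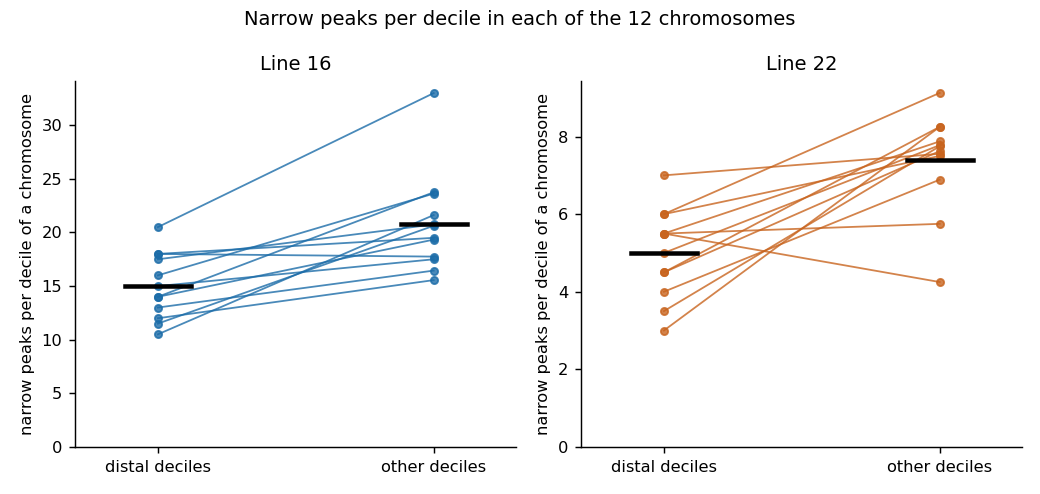
Narrow peaks per decile of a chromosome (y axis) in the distal and in the other deciles (x axis), for line 16 on the left and line 22 on the right. Each pair of joined points is 1 of 12 chromosomes and black bars are their means, 15.0 and 20.8 in line 16 and 5.0 and 7.38 in line 22; 11 of the 12 joining lines rise in each panel.

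Counts were low in the neighbouring deciles as well. The deciles were counted inwards from each of the 21 ends up to the middle of the chromosome. The one next to the distal decile held 373 narrow peaks in line 16, or 5.62 per Mb. In line 22 it held 105, or 1.58 per Mb, beside 104 in the distal decile. The deciles further in, from the third to the fifth, held 6.76, 7.15 and 7.12 narrow peaks per Mb in line 16 and 2.39, 2.48 and 2.54 in line 22. In both lines the third decile from the end was denser than the second, a step that was not tested. Set against the neighbouring deciles alone, the distal deciles of line 16 had 15.0 against 16.6 peaks per decile, a difference of -1.63 ± 5.28 (SD over 12 chromosomes; exact paired permutation test, adjusted *P* = 0.968). In line 22 they had 5.0 against 4.92, a difference of 0.0833 ± 2.44 (adjusted *P* = 0.968 in the same permutation test). A difference in density between the distal deciles and their neighbours was thus not detected in either line.

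**Figure D2:**
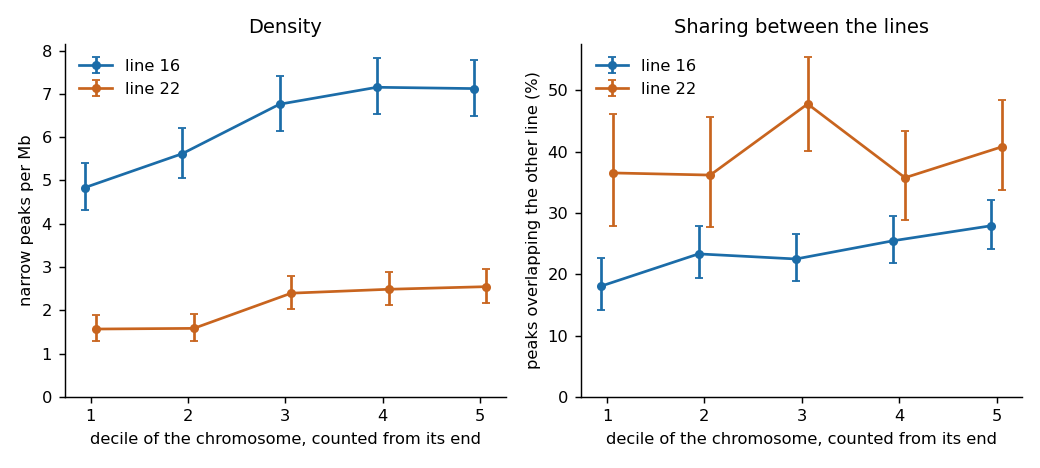
Density of narrow peaks per Mb (left) and percentage of narrow peaks overlapping any interval called in the other line (right), by decile of the chromosome counted from its end (x axis), summed over 21 ends. Bars are 95% intervals for counting error, exact Poisson on the left and Wilson on the right; density goes from 4.83 in the outermost to 7.12 per Mb in the fifth decile in line 16 and from 1.57 to 2.54 in line 22.

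In steps of 500 kb from the end, the outermost step was the densest of the first 5000 kb in both lines. The lead in line 16 was small, with 65 narrow peaks against 63 between 2500 and 3000 kb. At the last deciles the end is the highest position in the lists, so a called interval lies there by construction. In line 16 narrow peaks lay 0.078 kb from it on chromosome 7 and 0.858 kb on chromosome 10. Up to 500 kb from the end, line 16 had 65 narrow peaks over the 21 ends, or 6.19 per Mb (95% exact Poisson interval 4.78 to 7.89). Line 22 had 27, or 2.57 per Mb (1.69 to 3.74). Both intervals include the density of the other deciles, 6.68 and 2.39 per Mb. Between 500 and 1000 kb the counts were 49 and 18, and between 1000 and 1500 kb they were 47 and 18. The lowest density of the first 2000 kb was found between 1500 and 2000 kb, with 34 narrow peaks in line 16 (3.24 per Mb, 2.24 to 4.52) and 11 in line 22 (1.05 per Mb, 0.523 to 1.87). The intervals of the first and the last of these steps did not overlap in line 16 and did in line 22. From 2000 to 5000 kb, a stretch that leaves the distal decile at every end, the densities were 4.48 to 6.0 per Mb in line 16 and 0.952 to 1.52 in line 22. No test was run on this pattern, which was seen in the counts first, and the intervals cover counting error only. When the outermost 5% at each end was taken in place of the distal decile, the deficit no longer passed the test in either line, with a distal density of 0.782 times the rest in line 16 (exact paired permutation test, adjusted *P* = 0.0677) and 0.927 times in line 22 (adjusted *P* = 0.996).

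**Figure D3:**
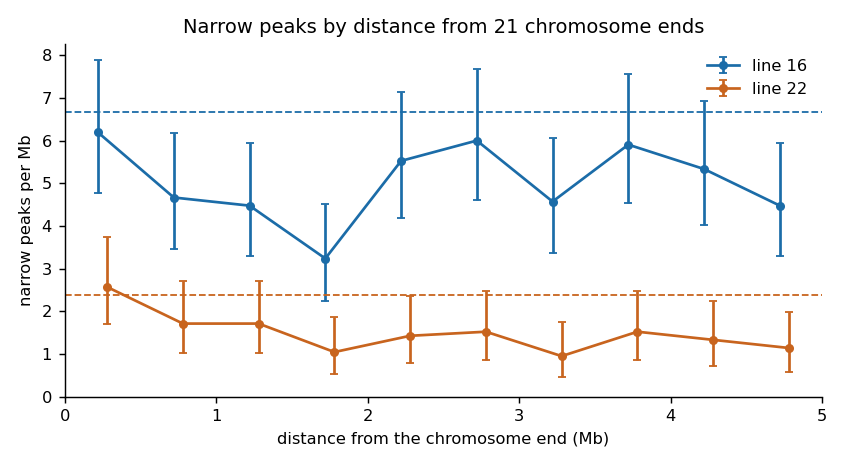
Narrow peaks per Mb (y axis) in steps of 500 kb from the chromosome end (x axis, Mb), summed over 21 ends, with 95% exact Poisson intervals; dashed lines give the density of the other deciles, 6.68 per Mb in line 16 and 2.39 in line 22. The first step lies near the dashed line in each line of plants, at 6.19 and 2.57 per Mb, and the fourth step is lower, at 3.24 and 1.05 per Mb.

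The broad regions, which MACS called at a weaker threshold from the same libraries, were also sparser in the distal deciles. Placed by their midpoints, 1823 of 12272 broad regions of line 16 and 977 of 6810 of line 22 were distal. Line 16 had 27.4 broad regions per Mb in the distal deciles and 34.1 elsewhere, and line 22 had 14.7 and 19.0. The distal density per decile was 0.807 times that of the other deciles in line 16, lower in 12 of 12 chromosomes, and 0.783 times in line 22, lower in 10 of 12 (exact paired permutation test, adjusted *P* = 0.00781 and 0.00977). Against the neighbouring deciles the ratios were 0.868 (adjusted *P* = 0.0781 in the same permutation test) and 0.990 (adjusted *P* = 0.968). Of the distal broad regions, 17.2% held a narrow peak in line 16 (95% Wilson interval 15.6 to 19.0%) and 10.5% in line 22 (8.77 to 12.6%). Elsewhere these shares were 19.1% (18.4 to 19.9%) and 12.3% (11.5 to 13.2%). As narrow peaks and broad regions come from the same tags, the second readout is not independent of the first.

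Counts at the 21 ends varied in both lines, and the order of the ends was not the same. Line 22 had the narrower range of counts and also fewer narrow peaks in all, 835 against 2368 in line 16. In line 16 an end held between 5 and 29 narrow peaks, with a median of 15. In line 22 it held between 2 and 8, with a median of 5. The density was below that of the other deciles at 19 of 21 ends in line 16 and at 19 in line 22, at 17 of them in both lines, and no end exceeded it in both. The 3 densest ends of line 16 were the start of chromosome 7 (29 narrow peaks, 9.78 per Mb), the start of chromosome 8 (20, 7.04 per Mb) and the end of chromosome 6 (20, 6.40 per Mb). In line 22 the same ends held 5, 5 and 4 narrow peaks and ranked 9, 7 and 15 of 21. The densest ends of line 22 were the last deciles of chromosome 10 (7 narrow peaks, 3.02 per Mb), chromosome 12 (8, 2.91 per Mb) and chromosome 5 (7, 2.34 per Mb). In line 16 the first 2 of these ranked 6 and 5, whereas the end of chromosome 5 was the sparsest, with 5 narrow peaks and 1.67 per Mb.

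Of the sparsest ends, that of chromosome 7 was common to both lines. The ends with fewest narrow peaks per Mb in line 16 were, after that of chromosome 5, the end of chromosome 7 (7 narrow peaks, 2.36 per Mb) and the start of chromosome 3 (10, 2.75 per Mb). In line 22 they were the start of chromosome 5 and the end of chromosome 7 (2 each, 0.668 and 0.674 per Mb) and the start of chromosome 11 (2, 0.691 per Mb). The start of chromosome 11 ranked 18 in line 16, with 9 narrow peaks. At most ends, counts this small did not set the density apart from that of the other deciles. The 95% exact Poisson interval of the density lay wholly below the density of the other deciles at 7 ends in line 16 and at none in line 22, and wholly above it at no end in either line. Neighbours in the order had overlapping intervals throughout, and in line 22 the densest and the sparsest end overlapped as well (1.21 to 6.22 and 0.0809 to 2.41 per Mb). Across the 21 ends the densities of narrow peaks in the lines had a Pearson's *r* of 0.204 and a Spearman's rho of 0.257, and those of broad regions had 0.685 and 0.585. These are descriptions over 21 ends that share the same libraries within a line. The first deciles counted 153 narrow peaks over 9 ends in line 16 (5.25 per Mb) and the last deciles 168 over 12 ends (4.51 per Mb), while in line 22 the order was the other way round, with 42 (1.44 per Mb) and 62 (1.66 per Mb). The 3 first deciles that were not counted as distal were denser than these pooled values. On chromosomes 4, 9 and 10 they had 5.36, 11.8 and 6.47 narrow peaks per Mb in line 16 (19, 27 and 15 peaks). In line 22 they had 2.54, 3.49 and 3.45 per Mb (9, 8 and 8 peaks). Single distal ends reached up to 9.78 per Mb in line 16 and 3.02 in line 22. The line 16 values of chromosomes 4 and 10 lay below the 6.68 per Mb of the other deciles.

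**Figure D4:**
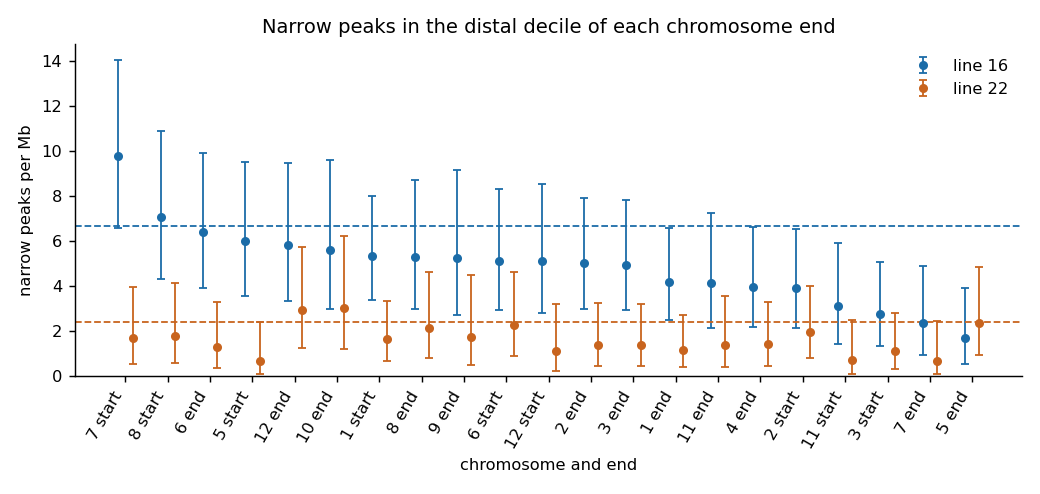
Narrow peaks per Mb (y axis) in the distal decile of each of 21 chromosome ends (x axis, ordered by line 16), with 95% exact Poisson intervals; dashed lines give the density of the other deciles in each line. In line 16 the points run from 9.78 at the start of chromosome 7 to 1.67 at the end of chromosome 5, and in line 22 from 0.668 to 3.02 in another order.

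No difference in height or enrichment was detected between the distal and the other narrow peaks. Pileup counts the ChIP tags that cover the summit, scaled by the authors to the smaller library of the line. In line 16 distal pileups ran from 22.9 to 93.5 (median 33.0) and the others from 21.1 to 94.4 (median 33.9). In line 22 the distal peaks ranged from 26.0 to 78.0 and the other peaks from 24.0 to 89.0, with a median of 34.0 for both. The mean log2 pileup per chromosome differed by -0.0033 ± 0.037 (SD over 12 chromosomes) in line 16 and by 0.0085 ± 0.055 in line 22 (exact paired permutation test, adjusted *P* = 0.838 and 0.745). Fold enrichment, the ChIP pileup over the local background as MACS estimated it, had distal medians of 2.63 and 2.61 in lines 16 and 22 and medians of 2.69 and 2.65 elsewhere. Its mean log2 value per chromosome differed by -0.019 ± 0.035 and -0.0099 ± 0.074 (adjusted *P* = 0.246 and 0.745 in the same permutation test). The pileup divided by the fold enrichment, which approximates the local background, had distal medians of 12.6 and 13.2 and medians of 12.6 and 12.8 elsewhere (permutation test, adjusted *P* = 0.657 and 0.745). Each mean difference was smaller than the spread between chromosomes.

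Length gave a less settled result. The shortest peaks were 146 bp long in both lines and in both parts of the chromosomes, which is the fragment length set for the peak calls. The distal peaks of line 16 were 146 to 457 bp long with a median of 170 bp, against 146 to 1097 bp and a median of 179 bp elsewhere. In line 22 the median was 169.5 bp in the distal deciles and 170 bp elsewhere, and the longest distal peak was 414 bp, against 1019 bp. The mean log2 length per chromosome differed by -0.036 ± 0.079 (SD over 12 chromosomes) in line 16 and by 0.00074 ± 0.13 in line 22, neither of which passed the exact paired permutation test (adjusted *P* = 0.336 and 0.980). With the median of each chromosome in place of the mean, the difference in line 16 was -0.069 and passed it (permutation test, adjusted *P* = 0.0203), whereas that in line 22 did not. The broad region around a narrow peak had a median length of 307 bp in the distal deciles of line 16 and 332 bp elsewhere, and of 253.5 and 275 bp in line 22. The gap to the nearest other narrow peak of the same line had a median of 67.3 kb in the distal deciles and 43.7 kb elsewhere in line 16, and of 224 and 125 kb in line 22. A wider gap goes with a lower density of narrow peaks, so the gap largely restates the density given above. Narrow peaks within 3 kb of another were few in both parts of the chromosomes, 7.79% of the distal and 9.04% of the other peaks in line 16 and 3.85 and 6.02% in line 22.

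The highest pileups among the distal peaks of both lines came from the same stretch of chromosome 6, which also had an unusually high background. In line 16 the peak at chr6:3102349-3102500 of MSU7.0 had a pileup of 93.5, the second highest of the 2368 narrow peaks. Its fold enrichment of 1.78 was the lowest of the whole list, and its approximate background of 52.4 tags was the highest. In line 22 the peak at chr6:3092670-3092857 had a pileup of 78.0, ranking 4 of 835, with a fold enrichment of 1.85, the third lowest, and an approximate background of 42.1 tags. The peaks do not overlap and lie 9.49 kb apart. The next highest approximate background among distal peaks was 20.5 tags in line 16 and 20.8 in line 22, so both stood far from the rest. Between them lay a broad region called in both lines, at chr6:3097659-3098014 in line 16 and chr6:3097683-3097968 in line 22. Its fold enrichment, averaged over the region, was 1.49 and 1.54, in each case the lowest of all broad regions of the line. Both peaks are also the members closest to the inner limit of the distal deciles, 21.6 and 31.2 kb inside it. Just outside lay chr11:2901877-2902041 in line 16, with a pileup of 37.6 and a fold enrichment of 2.57, and chr2:3595842-3595993 in line 22, with 29.0 and 2.83. They were 7.97 and 2.70 kb from the limit, and both overlapped the other line.

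**Figure D5:**
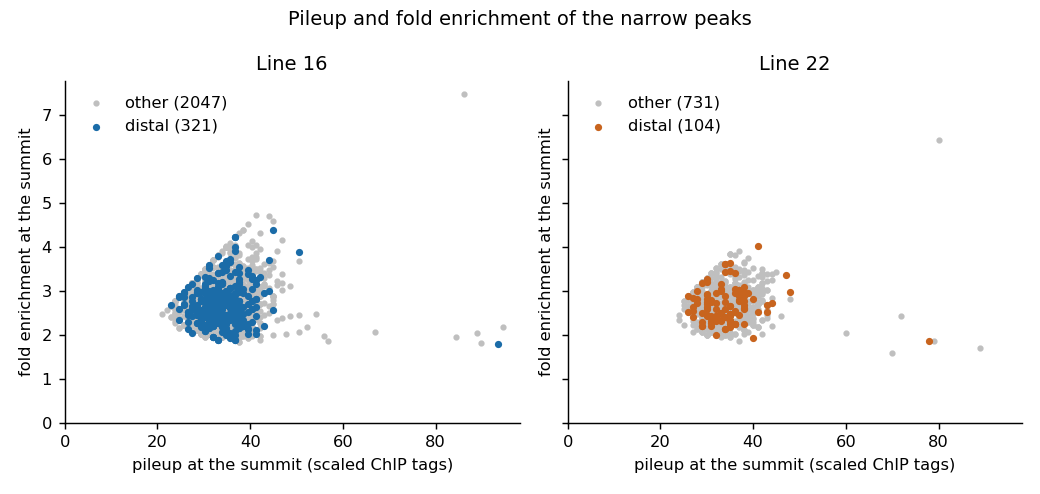
Fold enrichment (y axis) against pileup at the summit (x axis, scaled ChIP tags) of every narrow peak, coloured where distal and grey elsewhere, for line 16 on the left and line 22 on the right. Distal pileups lie within the range of the others, and the chromosome 6 peaks, at a pileup of 93.5 and 78.0 with a fold enrichment of 1.78 and 1.85, are the highest distal ones.

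The distal peaks with the highest fold enrichment had approximate backgrounds of 8.71 to 10.3 tags, far below those on chromosome 6. This follows in part from the choice, since that background is the pileup divided by the fold enrichment. The highest in line 16 was chr1:2546784-2547015, with a fold enrichment of 4.38, a pileup of 44.9 and rank 8 by fold enrichment in the list. Next came chr11:942932-943090 and chr11:28883129-28883289, both with a fold enrichment of 4.21 and a pileup of 36.7. The last of these lay 57.1 kb from the end of the chromosome. In line 22 the highest was chr2:2758572-2758718, with a fold enrichment of 4.01, a pileup of 41.0 and rank 2 by fold enrichment. Next came chr8:1954761-1954919 and chr10:21102457-21102625, with a fold enrichment of 3.63 and 3.6 and a pileup of 35.0 and 34.0. None of these 6 peaks was overlapped by any interval called in the other line, which was also the case for 263 of the 321 distal peaks of line 16 and 66 of the 104 of line 22. Of all narrow peaks, only 24.9% in line 16 and 41.2% in line 22 overlapped the other line. The next highest pileups after those on chromosome 6 were 50.4 at chr12:27209323-27209499 and 44.9 at chr1:2546784-2547015 in line 16. In line 22 they were 48.0 at chr11:28749446-28749783 and 47.0 at chr9:22319808-22319975, of which that on chromosome 11 overlapped a broad region of line 16. Of the top 100 of each list by fold enrichment, 14 were distal in line 16 and 12 in line 22, beside distal shares of 13.6% and 12.5% in the whole lists. By pileup, 9 of the top 100 were distal in line 16 and 10 in line 22.

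Distal narrow peaks of line 16 overlapped line 22 less often than the other peaks of line 16. An overlap of 1 bp or more with any narrow peak or broad region called in the other line was required, which held for 24.9% of all narrow peaks of line 16 and 41.2% of those of line 22. Of the distal peaks of line 16, 58 of 321 did so, or 18.1% (95% Wilson interval 14.2 to 22.6%), against 531 of 2047, or 25.9% (24.1 to 27.9%), elsewhere. The share was lower in 10 of the 12 chromosomes, chromosomes 3 and 7 being the exceptions, with a mean difference of -8.21 ± 8.02 percentage points (SD over 12 chromosomes; exact paired permutation test, adjusted *P* = 0.0250). Of the distal peaks of line 22, 38 of 104 overlapped line 16, or 36.5% (27.9 to 46.1%), against 306 of 731, or 41.9% (38.3 to 45.5%). That difference, -7.40 ± 20.3 percentage points, did not pass the test (exact paired permutation test, adjusted *P* = 0.459), and the differences in the lines were not found to differ from each other (adjusted *P* = 0.921 in the same kind of permutation test).

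The call in line 16 was not firm. Against the neighbouring deciles alone the difference was -3.14 ± 13.4 percentage points (permutation test, adjusted *P* = 0.968), and with a stricter overlap of at least 50% of the shorter interval it was -5.30 (adjusted *P* = 0.139). It was also lost, at an adjusted *P* of 0.050 in the permutation test, without chromosome 1, 4, 5, 10, 11 or 12. By decile from the end, the share in line 16 was 18.1% in the distal decile and then 23.3, 22.5, 25.5 and 27.9% towards the middle of the chromosome. In line 22 it was 36.5%, then 36.2, 47.8, 35.8 and 40.8%, without such an order. Possible partners were also sparser in the distal deciles, where line 22 had 0.783 times as many broad regions per decile as elsewhere, as given above. By decile from the end, line 22 had 14.7, 15.4, 19.5, 20.4 and 19.6 broad regions per Mb. These densities and the shares of line 16 did not rise and fall at the same steps. The part of partner density in the lower overlap was not tested. When a narrow peak of the other line was required as partner, which held for 3.8% of all narrow peaks of line 16 and 10.7% of those of line 22, the distal shares were 3.43% (11 of 321) and 10.6% (11 of 104). Elsewhere they were 3.86% (79 of 2047) and 10.7% (78 of 731), and no difference was detected (exact paired permutation test, adjusted *P* = 0.745 in both lines). With each chromosome left out in turn, an alternative chosen after seeing the data, this call changed in line 16 only, in 1 of 12 cases. That was without chromosome 2, which carried 4 of the 11 distal pairs of narrow peaks. The mean difference in line 16 was then -1.85 instead of -0.783 percentage points and passed (permutation test, adjusted *P* = 0.0365). In line 22 it was -4.79 instead of -2.03 and did not pass (permutation test, adjusted *P* = 0.0536). Both lines count the same 11 distal pairs, so line 22 is not an independent repeat here. Among the overlapping peaks, those with only a broad region as partner were 47 of 58 distal and 452 of 531 other peaks in line 16, and 27 of 38 and 228 of 306 in line 22, so this was the usual case in both parts of the chromosomes. Overlapping peaks were absent at 2 of the 21 ends in line 16 and at 4 in line 22, beside shares of 24.9% and 41.2% over all narrow peaks. In line 16 these ends included the start of chromosome 1, with 23 distal peaks, where 4 of the 7 peaks of line 22 overlapped line 16. That end held 120 broad regions of line 16 and 54 of line 22. The overlapping distal peaks were much like the rest in height, with a median pileup of 33.9 against 33.0 in line 16 and 34.5 against 34.0 in line 22.

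There were 11 pairs of overlapping narrow peaks, 1 of each line, with both summits in a distal decile. The pair closest to an end was on chromosome 8, at chr8:28321761-28322029 in line 16 and chr8:28321833-28321995 in line 22, 95.9 kb from the last position in the lists. Its pileup was 33.9 in line 16 and 33.0 in line 22, its fold enrichment 2.69 and 2.5. Chromosome 2 alone carried 4 of the 11. At chr2:461429-461618 in line 16 and chr2:461436-461591 in line 22 the pileup was 29.3 and 29.0, and the fold enrichment 2.48 and 2.5. At chr2:2184097-2184450 and chr2:2184126-2184276 the pileup was 43.1 and 30.0, and the fold enrichment 2.94 and 2.74. In the first of these the lines had nearly equal values, while in the second line 16 was the higher.

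The other pairs of chromosome 2 lay at chr2:2721332-2721596 in line 16 and chr2:2721477-2721622 in line 22, with a fold enrichment of 2.36 and 2.83, and at chr2:33920761-33920909 and chr2:33920776-33921036, with 2.62 and 2.75. Line 22 had the higher value in both. The highest fold enrichment of all distal pairs was that on chromosome 7, at chr7:1444510-1444667 in line 16 and chr7:1444360-1444535 in line 22, where the pileup was 33.9 and 34.0. Its intervals shared only 26 bp and its summits lay 95 bp apart. The highest mean pileup was that of chr5:658927-659169 and chr5:658707-658930, with 40.3 and 41.0 and a fold enrichment of 2.76 and 2.52. These intervals shared only 4 bp and their summits lay 237 bp apart, the widest distance of the 11, so that one site and a pair of neighbouring sites cannot be told apart here.

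The remaining 4 pairs were all in the last decile of their chromosomes. They lay at chr1:40601197-40601349, chr6:28981639-28981789, chr10:22417324-22417471 and chr12:26147102-26147258 in line 16. Their partners in line 22 were chr1:40601123-40601283, chr6:28981659-28981833, chr10:22417275-22417520 and chr12:26147073-26147264. Summits of the last 3 lay 4, 3 and 5 bp apart, and those on chromosome 1 were 22 bp apart. On chromosomes 1, 10 and 12 the fold enrichment was higher in line 22 (3.04, 2.90 and 3.09) than in line 16 (2.05, 1.95 and 2.47), while on chromosome 6 it was 2.32 and 2.36. Over the 11 distal pairs the summits lay a median of 24 bp apart (range 3 to 237 bp), and over the 79 other pairs a median of 58 bp (range 1 to 391 bp), a description that was not tested. Line 16 had the higher fold enrichment in 5 of the 11. Genes at these positions and their sequences were not analysed here, since the gene table at hand belongs to another assembly than MSU7.0.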

How the data were processed

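The authors aligned reads to MSU7.0 with Bowtie2 and called peaks with MACS 2.0.10.20131216, with input DNA of the same line as control and no pooling of lines. They kept 1 tag per position, used a fragment length of 146 bp, and set a q-value of 0.05 for narrow peaks and 0.1 for broad regions. Deposited values were used as they stand: pileup, a signal scaled by the authors to the smaller library; fold enrichment, the authors' ratio of ChIP pileup to local background; and −log10 q-values, deposited by the authors from the same run. The deposited pileup of broad regions is negative throughout and was not used.

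Members, measures and alternatives were chosen with earlier results of these data known. Distal and other peaks were compared within each chromosome, with an exact two-sided paired permutation test over the signs of 12 differences (4096 arrangements) and Benjamini-Hochberg adjustment over 16 tests. The smallest *P* this test can give is 0.000488. Differences between the lines were tested in the same way over 8 measures, densities relative to each line's own. Chromosomes of 1 library are not replicate plants. Named peaks are the 11 narrow pairs, the 3 distal peaks with the highest pileup and fold enrichment per line, the 3 densest and sparsest ends, and the peaks nearest the limit of the deciles. Python 3.11.15, numpy 2.4.6, pandas 2.3.3 and scipy 1.17.1 were used. Recovery of the contrasts in narrow-peak density and pileup was checked on simulated lists with peaks placed at random. The other measures were not checked in this way.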

Additional observations from a re-analysis of the deposited data

How the results depend on the processing

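No paired analysis was possible because each deposited list already sets ChIP against its matched input, so the replicate numbers of the libraries could enter no test; the pairs in the tests used here are deciles of the same chromosome. Densities are given as distal over other, shares in percentage points, and the rest as log2 differences. The density ratio of line 16 lost its call with the outermost 5% (0.782), with the first deciles of chromosomes 4, 9 and 10 counted as distal (0.769, adjusted *P* = 0.0527 in the permutation test) and against the neighbouring deciles (0.902). That of line 22 lost it with 5% (0.927) and turned to 1.02 against the neighbouring deciles. For broad regions, the neighbouring deciles ended both calls (0.868 and 0.990). In the other alternatives the density calls held. Summed over the lines the ratio was 0.710, and 0.677 to 0.722 with 1 line left out. The lower overlap of line 16 lost its call with 5% (-4.91), with the 3 first deciles counted as distal (-6.71), against the neighbouring deciles (-3.14), at a q-value under 0.001 (-7.98), with an overlap of 50% (-5.30) and, an alternative chosen after seeing the data, against deciles 3 to 8 only (-6.67). On chromosomes 4, 9 and 10 this last comparison used deciles 6 to 8 only. With each chromosome left out in turn, also chosen after seeing the data, the density calls held in all 12 cases in both lines, while the overlap in line 16 kept its call in 6 of 12, with differences of -9.63 to -7.10 and an adjusted *P* of 0.0156 to 0.050 in the permutation test. The call was lost without chromosome 1, 4, 5, 10, 11 or 12, each at an adjusted *P* of 0.050. Without chromosome 2 the narrow-partner share of line 16 was -1.85 and passed (adjusted *P* = 0.0365 in the permutation test), and that of line 22 was -4.79 (adjusted *P* = 0.0536). The cause was not tested. For length in line 16, medians per chromosome gave -0.069, past the threshold.

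Differences that did not pass in the main comparison changed sign as follows. With 5%, pileup in line 22 was -0.0195 and background -0.00015. With 20%, pileup was 0.0011 in line 16 and -0.0048 in line 22, and length in line 22 was -0.032. With the 3 first deciles counted as distal, pileup and length in line 22 were -0.0011 and -0.00060. Against the neighbouring deciles, fold enrichment was 0.011 and 0.017 and background -0.023 and -0.0022 in lines 16 and 22, the narrow-partner share of line 16 was 0.168 and the overlap of line 22 was 1.64. At a q-value under 0.001, background was -0.0044 and -0.0037, and in line 22 length was -0.020 and fold enrichment 0.019. With medians, background in line 16 was -0.0093. Against deciles 3 to 8, fold enrichment in line 22 was 0.00059. With 1 chromosome left out, length in line 22 changed sign without chromosome 1, 3, 4, 5, 11 or 12 (lowest value -0.0184), pileup without chromosome 11 in line 16 (0.0046) and without 5 in line 22 (-0.00052), and fold enrichment in line 22 without 6 (0.000755).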
